A study of Mus musculus with 6 samples.

Results

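Histone genes are described here across C4HD breast tumour cultures that were transfected with pre-miR-16, which gives rise to the microRNA miR-16, or with pre-miR-Control. Members were all probes for mouse genes whose name in the scanner files begins with Hist1h to Hist4h, H2af or H3f3, or is H1f0 or H1fx. There were 65 such probes, for 45 gene names, among the 41174 probes of the array. Of these, 44 probes (34 gene names) measure genes of the replication-dependent histone clusters and 21 probes (11 gene names) measure histone variants. C4HD is a ductal mammary tumour of BALB/c females that arose under the progestin medroxyprogesterone acetate and is kept by transplantation into mice that carry a depot of it. The pre-miR-16 group received 30 nM pre-miR-16 for 48 h, and the pre-miR-Control group received 30 nM of a precursor that forms no known mammalian microRNA for the same time. Each group had 3 replicates, each on its own 1-colour Agilent mouse expression array. All cultures came from tumours grown under the same progestin, were enriched for epithelial cells by repeated sedimentation, and were plated in steroid-stripped serum. The labels do not say whether replicates came from separate tumours, so the p-values measure the spread between these arrays, which may be technical.

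Nucleosomes are built from the core histones H2A, H2B, H3 and H4, and the linker histone H1 binds the DNA between them. Cluster genes supply histones while DNA is copied. Their mRNAs normally end in a stem-loop in place of a poly(A) tail, and their amount is known to follow S phase. Variant genes such as H3f3a, H3f3b, H2afz and H1f0 are transcribed throughout the cell cycle or in resting cells, and their mRNAs carry poly(A). No source used here gives the primer for the labelled cRNA, so how well each kind of histone mRNA was read is unknown. Some cluster genes also make polyadenylated mRNA, and these probes cannot tell the forms apart.

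The mature miR-16 that the precursor is made to supply is shown because it is the agent tested. RefSeq (GRCm38.p6) gives the same mature sequence for both mouse miR-16 genes, with the seed, bases 2 to 8, in capitals.
miR-16-5p: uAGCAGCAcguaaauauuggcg

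Processed signals were divided by the array's 75th percentile, so a level below is a log2 signal relative to that percentile, and a change is the log2 difference of pre-miR-16 over pre-miR-Control ± SE. The percentile lay between 591 and 843 signal units, no spot was saturated, and the share of spots well above background ranged over 57.2% to 64.0%. A probe was tested where its spots stood well above background on all 3 arrays of a group, and a change was called at a Benjamini-Hochberg adjusted p under 0.05 from limma over the 23827 probes so kept. With 3 arrays per group, their number limits the precision. Of all kept probes, 44.6% were called, 15.8% higher and 28.8% lower, and the median change was -0.16. The groups did not overlap at many of the 23827 kept probes, 4713 of them higher and 9231 lower in pre-miR-16 cultures. A lack of overlap at a named probe was thus common on these arrays. The array of pre-miR-16 replicate 2 stood apart from the other pre-miR-16 arrays in genes of the cell cycle, as given below. Values without this array are given as a description. It was singled out by its readings in these data, so a call gained without it is not separate support for a change. In the deposited matrix of normalized values replicates 1 and 2 of the pre-miR-16 group had their columns crossed relative to the scanner files, so those replicate numbers are those of the scanner files.

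Histone cluster genes led by H2B and H4 were higher in pre-miR-16 cultures, while among variants H3f3a, H2afv and 1 of the H1f0 probes were lower. The other H1f0 probes were not called, and the calls of H3f3a and H2afv were lost with spike-in scaling. Of the 35 cluster probes that could be tested, 17 were called higher (48.6%), 1 was called lower and 17 were not called, against 15.8% higher and 28.8% lower over all probes. The median change of the 35 was 0.79. Of the 19 variant probes that could be tested, 1 was called higher, 5 were called lower (26.3%) and 13 were not called, with a median change of -0.23 that became 0.13 with spike-in scaling. The variants' share of lower calls was thus near the 28.8% of all probes. The remaining 9 cluster and 2 variant probes were too dim to test, and 5 of the 9 and 1 of the 2 were above background on no array. Among cluster probes, 3 passed the filter through 1 group alone and so had to differ. With probes above background on all 6 arrays, 16 of 32 cluster probes were higher and 0 lower, with a median of 0.76, against 13.4% higher and 30.2% lower over all such probes. In these bulk cultures a larger share of dividing cells and more histone mRNA per cell cannot be told apart, nor can fewer cells of a type and less RNA per cell.

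**Figure D1:**
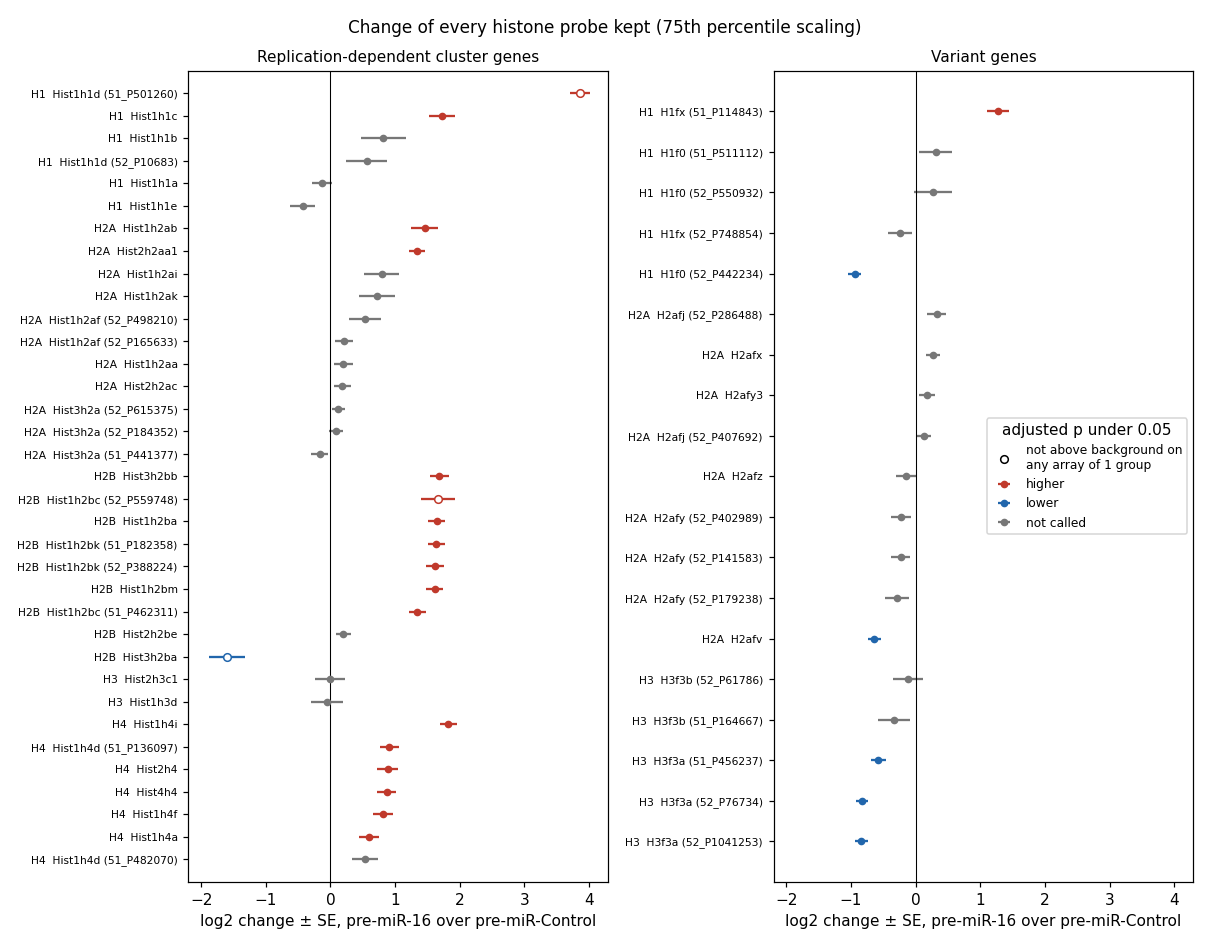
Change (log2, pre-miR-16 over pre-miR-Control) with its standard error for the 35 cluster probes (left) and 19 variant probes (right) that were tested, grouped by histone type. Red points were called higher, blue points lower and grey points neither. Open points were above background in only 1 group, so their position is not a measured fold. Most H2B and H4 cluster probes lie to the right of 0, while H3f3a lies to the left.

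The shift was uneven across histone types. Of the cluster probes tested, 7 of 9 for H2B and 6 of 7 for H4 were higher, against 2 of 6 for H1, 2 of 11 for H2A and 0 of 2 for H3. Over all probes 15.8% were higher and 28.8% lower. Median changes were 1.62 for H2B, 0.87 for H4, 0.69 for H1, 0.21 for H2A and -0.03 for H3. By locus, 13 of 24 tested probes of the large Hist1 cluster on chromosome 13 were higher, with a median change of 0.82. In the Hist2 cluster on chromosome 3, 2 of 5 were higher, with a median of 0.20. The Hist3 genes on chromosome 11 had 1 of 5 higher and 1 lower, with a median of 0.09, and the tested Hist4 probe on chromosome 6 was higher. These counts include Hist1h1d probe A_51_P501260 and Hist1h2bc probe A_52_P559748 among the higher, and Hist3h2ba as the lower. Those probes passed the filter through 1 group alone and so had to differ. Differences between types or loci were not tested, and probes that share sequence are not independent.

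Among linker histones, Hist1h1c (current symbol H1f2), a somatic H1, was clearly higher in pre-miR-16 cultures. Its level was 2.95, 2.78 and 2.79 on the pre-miR-16 arrays, against 0.78, 1.00 and 1.56 on the pre-miR-Control arrays. The groups did not overlap, and the spread was wider among the controls. Hist1h1c rose by 1.73 ± 0.21 on the log2 scale, or 3.31-fold (adjusted p = 0.00142), with differences of 2.17 within slide 1 and 1.50 within slide 2 and a slide-blocked value of 1.78.

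Hist1h1d (H1f3), another somatic H1, was read by 3 probes that did not give 1 answer. Probe A_51_P501260 read -2.63, -2.42 and -2.69 on the pre-miR-16 arrays, and -6.64, -6.54 and -6.15 on the pre-miR-Control arrays, where it was not well above background on any array. It was at least 6.37-fold higher in pre-miR-16 cultures (adjusted p = 1.75e-05). This bound sets the mean of the bright group against the dimmest signal that still stood above background on each array of the dim group, or the probe's own signal where that was higher, and it holds for the processed signal only. With normexp background correction the same probe's change was 1.17. Probe A_52_P10683 differed by 0.56 ± 0.31 (adjusted p = 0.191) and was not called. On the plus strand of chromosome 13, A_51_P501260 (22923327-22923386 in mm7) lies downstream of A_52_P10683 (22921576-22921635). Whether both probes read the same transcript was not tested. The third probe lies on the opposite strand and was too dim to test.

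The other linker genes were not called. Hist1h1b (H1f5) had levels of -2.93, -3.87 and -2.95 on pre-miR-16 arrays, against -3.54, -4.13 and -4.53 on pre-miR-Control arrays, so the groups overlapped at pre-miR-16 replicate 2. Its change was 0.82 ± 0.35 (adjusted p = 0.101), and without that array it was 1.13 (adjusted p = 0.0265). Hist1h1a (H1f1) changed by -0.13 ± 0.16 (adjusted p = 0.524). Hist1h1e (H1f4) changed by -0.43 ± 0.20 (adjusted p = 0.122). Hist1h1t, the testis H1, was too dim to test.

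Of the 11 H2A cluster probes tested, 2 were called higher (18.2%), near the 15.8% of all probes, and 9 were not called. Hist1h2ab (H2ac4) read -2.23, -2.91 and -2.69 on pre-miR-16 arrays, against -3.90, -3.95 and -4.34 on pre-miR-Control arrays, with no overlap. It rose by 1.46 ± 0.21, or 2.75-fold (adjusted p = 0.0028), but by 0.64 under normexp correction. Hist2h2aa1 (H2ac18), a Hist2 gene, read -0.70, -0.77 and -0.88 on pre-miR-16 arrays, against -2.09, -2.31 and -1.97 on pre-miR-Control arrays. It rose by 1.34 ± 0.12, or 2.53-fold (adjusted p = 0.000453), with 1.39 within slide 1 and 1.37 within slide 2. A brighter probe filed under Hist2h2ac is placed close by on the same strand (chr3:96119778-96119837 against chr3:96119529-96119588 of mm7). RefSeq puts the Hist2h2ac promoter on the opposite strand. That probe changed by 0.18 ± 0.13 and was not called (adjusted p = 0.304). Whether both probes read the same gene was not tested.

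Hist1h2ai (H2ac13) and Hist1h2ak (H2ac15) showed another pattern. Hist1h2ai read -0.62, -1.54 and -0.51 on pre-miR-16 arrays, against -1.72, -1.68 and -1.63 on pre-miR-Control arrays. Pre-miR-16 replicates 1 and 3 stood well above the controls, while replicate 2 stood just above them. The change was 0.79 ± 0.27 (adjusted p = 0.0562), with 1.10 within slide 1 and 0.12 within slide 2, and without replicate 2 it was 1.12 (adjusted p = 0.000546). Hist1h2ak read 0.32, -0.58 and 0.47 on pre-miR-16 arrays, against -0.63, -0.66 and -0.67 on pre-miR-Control arrays, a change of 0.72 ± 0.27 (adjusted p = 0.0749).

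The cluster H2A probe with the highest mean level was filed under Hist1h2aa (H2ac1, known as a testis H2A). It read 6.28, 5.85 and 6.34 on pre-miR-16 arrays, against 5.99, 5.98 and 5.90 on pre-miR-Control arrays. Its change of 0.20 ± 0.15 was not called (adjusted p = 0.311). Replicate 2 lay below all controls, and the other pre-miR-16 arrays lay above them. Without replicate 2 the change was 0.35 and was called (adjusted p = 0.019). The Hist1h2aa probe matches probe A_52_P407692 of the variant H2afj at 45 of 52 aligned bases (86.5%). That H2afj probe matches Hist1h2af probe A_52_P165633 at 43 of 52 (82.7%). These 3 probes changed by 0.12 to 0.21, and their signals cannot be given to single genes. The other tested H2A probes, 2 for Hist1h2af, 1 for Hist2h2ac and 3 for Hist3h2a, changed by -0.17 to 0.54 and were not called. Hist1h2ac, Hist1h2ae and both Hist2h2aa2 probes were too dim to test.

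Probe sequences bear on how separate these readings are. The 60-base probe of Hist1h2ak matches that of Hist1h2ai at 55 of 60 aligned bases (91.7%), and the probe of Hist2h2aa1 at 48 of 58 (82.8%). The 3 probes are shown as the files give them, with capitals where a base differs from the Hist1h2ai probe in the best ungapped alignment. They lie on chr13:21153148-21153207, chr13:21119757-21119816 and chr3:96119529-96119588 of mouse build mm7.
Hist1h2ai: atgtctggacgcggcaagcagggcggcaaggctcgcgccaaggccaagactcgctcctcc
Hist1h2ak: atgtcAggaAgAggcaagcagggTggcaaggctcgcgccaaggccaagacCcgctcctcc
Hist2h2aa1: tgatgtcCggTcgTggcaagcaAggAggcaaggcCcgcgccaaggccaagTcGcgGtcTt

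The Hist1h2ak probe also shares 40 of 40 aligned bases with Hist1h2af probe A_52_P498210. Transcripts this alike can bind each other's probes, so the signal of a probe cannot be given to 1 gene. Hist2h2aa1, with the most differences of the 3, did not follow the low reading of pre-miR-16 replicate 2.

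**Figure D2:**
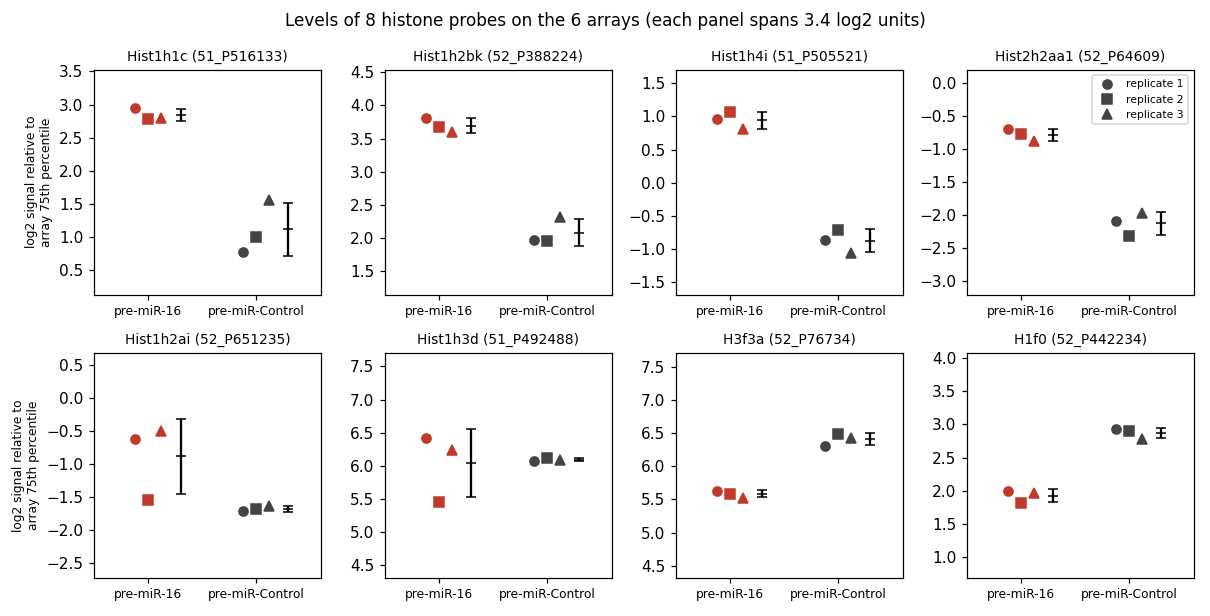
Level (log2 signal relative to the array's 75th percentile) of 8 histone probes on each pre-miR-16 array (red) and pre-miR-Control array (grey), with symbols for replicates and the mean ± SD beside each group. The upper row (Hist1h1c, Hist1h2bk, Hist1h4i and Hist2h2aa1) shows all 3 pre-miR-16 arrays above all controls. For Hist1h2ai and Hist1h3d the pre-miR-16 replicate 2 array lies apart from the other pre-miR-16 arrays, and for H3f3a and H1f0 all 3 pre-miR-16 arrays lie below the controls.

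Of the 9 H2B probes tested, 7 were higher, with changes of 1.34 to 1.69. Hist1h2bc probe A_52_P559748, among the 7, was known only by a bound, as given below. Hist1h2bk (H2bc12) read 3.81, 3.67 and 3.60 on pre-miR-16 arrays at probe A_52_P388224, against 1.97, 1.95 and 2.32 on pre-miR-Control arrays. All 3 pre-miR-16 arrays agreed closely and stood above every control. The change was 1.62 ± 0.14, or 3.07-fold (adjusted p = 0.000322), with 1.85 within slide 1 and 1.54 within slide 2. Its second probe, A_51_P182358, lies next to the first in the gene and changed by 1.64 ± 0.13 (adjusted p = 0.00025).

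Hist1h2bm (H2bc14) changed by 1.61 ± 0.13 (adjusted p = 0.000285), at 3.85, 3.73 and 3.67 on pre-miR-16 arrays, against 1.99, 2.05 and 2.37 on pre-miR-Control arrays. Hist3h2bb, whose current name H2bu1-ps marks it as a pseudogene, changed by 1.69 ± 0.14 (adjusted p = 0.000348), at 3.65, 3.50 and 3.42 on pre-miR-16 arrays, against 1.67, 1.75 and 2.10 on pre-miR-Control arrays. Hist1h2ba (H2bc1), known as a testis H2B, changed by 1.64 ± 0.14 (adjusted p = 0.000311), at 2.65, 2.53 and 2.38 on pre-miR-16 arrays, against 0.76, 0.77 and 1.10 on pre-miR-Control arrays. In each, control replicate 3 was the highest control, as it was for Hist1h2bk.

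No test of binding was made, so the readings of these 4 genes cannot be taken as separate. Pairs of them matched at 87.5% to 96.7% of aligned bases where the pair met the 80% limit, and at 54.2% in the least alike pair. The changes of the 4 probes lay between 1.61 and 1.69. The sequences are shown to make the likeness plain, with capitals where a base differs from the first. The probes lie on chr13:21402048-21402107, chr13:21088259-21088318, chr11:59035740-59035799 and chr13:23299744-23299803 of mm7.
Hist1h2bk: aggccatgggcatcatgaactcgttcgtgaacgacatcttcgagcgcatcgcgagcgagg
Hist1h2bm: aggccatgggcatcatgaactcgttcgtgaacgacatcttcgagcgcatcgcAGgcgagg
Hist3h2bb: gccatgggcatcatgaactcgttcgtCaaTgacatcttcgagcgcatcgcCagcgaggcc
Hist1h2ba: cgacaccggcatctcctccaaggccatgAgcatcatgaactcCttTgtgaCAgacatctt

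Hist1h2bm differs from Hist1h2bk at 2 of 60 bases, Hist3h2bb at 3 of the 58 that align and Hist1h2ba at 5 of the 40 that align. A pseudogene and a testis gene were therefore called higher through probes that could also read the common somatic H2B transcripts. Whether either was itself transcribed was not tested.

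The remaining H2B probes varied more. Hist1h2bc (H2bc4), a somatic H2B, read 3.42, 3.18 and 3.34 on pre-miR-16 arrays at probe A_51_P462311, against 1.86, 1.85 and 2.20 on pre-miR-Control arrays. It rose by 1.34 ± 0.13, or 2.54-fold (adjusted p = 0.000671). A second probe filed under the same gene, A_52_P559748, is placed elsewhere on chromosome 13 and was above background on 0 control arrays. That probe was at least 1.75-fold higher in pre-miR-16 cultures (adjusted p = 0.00407), but with normexp correction the call was lost (change 0.21, adjusted p = 0.0716).

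Hist2h2be (H2bc21), a somatic H2B of the Hist2 locus, read -3.06, -2.92 and -2.99 on pre-miR-16 arrays, against -3.33, -3.01 and -3.23 on pre-miR-Control arrays, and its change of 0.20 ± 0.12 was not called (adjusted p = 0.205). Hist3h2ba (H2bu2) was the 1 cluster probe called lower. It read -6.28, -5.54 and -5.47 on pre-miR-16 arrays, none of them above background, against -4.16, -3.81 and -4.53 on pre-miR-Control arrays, and was at least 2.04-fold lower (adjusted p = 0.00526). The log2 change was smaller than that bound under normexp correction (-0.52, adjusted p = 0.00644) and in the series matrix (-0.38, adjusted p = 0.011). Hist1h2be was above background on no array.

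Promoters of H2B and H2A genes are known for an octamer, ATTTGCAT, that the factor Oct-1 (Pou2f1) binds. RefSeq promoters (GRCm38.p6, 250 bases before to 50 after the start) were at hand for 38 of the 45 member genes and were searched on both strands for the octamer, for CCAAT and for TATAAA. The octamer was present in 3 of 5 H2B promoters (Hist1h2ba, Hist1h2bk and Hist1h2bm, all with called probes), in 6 of 11 H2A promoters, in 0 of 13 for H1, H3 and H4 and in 1 of 9 variant promoters (H3f3b), against 1.74% of all RefSeq promoters. Of the 6 H2A genes with it, only Hist1h2ab was called, 3 were not called and 2 were not tested. The Hist1h2aa and Hist1h2ba promoters overlap on opposite strands, so the same octamer is counted for H2A and for H2B. The alike probes of the 3 H2B genes with the octamer cannot be taken as separate readings, as given above. CCAAT was in 26 of 29 cluster and 6 of 9 variant promoters, against 37.4% of all promoters. TATAAA was in 19 of 29 cluster promoters and 1 of 9 variant promoters, against 13.6% of all.

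The 250 bases before the start are printed for Hist1h2bk (chr13:22035571-22035820, plus strand), the H2B gene described first. They are also printed for Hist1h4i (chr13:22041363-22041612, minus strand), under which the H4 probe with the largest change is filed. Capitals mark the searched letters on either strand, and no matches overlap. The first holds the octamer, CCAAT on both strands and TATAAA on the opposite strand, and the second holds TATAAA alone. A match is a description of the letters and not of binding.
Hist1h2bk: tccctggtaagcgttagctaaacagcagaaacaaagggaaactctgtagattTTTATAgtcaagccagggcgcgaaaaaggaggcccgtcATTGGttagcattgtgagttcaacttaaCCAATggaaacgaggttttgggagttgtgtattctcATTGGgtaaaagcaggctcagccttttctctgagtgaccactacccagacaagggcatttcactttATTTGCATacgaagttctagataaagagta
Hist1h4i: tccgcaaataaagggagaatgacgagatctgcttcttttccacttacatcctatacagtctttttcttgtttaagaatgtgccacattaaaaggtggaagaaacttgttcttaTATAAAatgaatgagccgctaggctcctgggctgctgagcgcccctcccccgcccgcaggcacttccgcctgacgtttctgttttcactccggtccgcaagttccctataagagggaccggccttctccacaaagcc

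The H3 cluster probes were among those that were not called. Hist1h3d (H3c4) read 6.42, 5.45 and 6.24 on pre-miR-16 arrays, against 6.08, 6.11 and 6.09 on pre-miR-Control arrays. Replicates 1 and 3 lay above the controls and replicate 2 below them, so the groups overlapped. The change was -0.05 ± 0.25 (adjusted p = 0.878), with 0.35 within slide 1 and -0.65 within slide 2.

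Hist2h3c1 (H3c14) had the same shape, at 6.99, 6.09 and 6.79 on pre-miR-16 arrays, against 6.60, 6.63 and 6.66 on pre-miR-Control arrays, with a change of -0.01 ± 0.23 (adjusted p = 0.979). A p above the threshold does not show that H3 mRNA was equal in both groups, since the pre-miR-16 arrays spread widely. Without replicate 2 the change was 0.24 for Hist1h3d (adjusted p = 0.0804) and 0.26 for Hist2h3c1 (adjusted p = 0.0736), neither called. Hist1h3a was above background on no array.

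Of the 7 H4 probes tested, 6 were higher, and the largest change was at Hist1h4i. Hist1h4i (H4c9) read 0.96, 1.07 and 0.81 on pre-miR-16 arrays, against -0.87, -0.71 and -1.06 on pre-miR-Control arrays, with no overlap. It rose by 1.82 ± 0.13, or 3.54-fold (adjusted p = 0.000146), with 1.83 within slide 1 and 1.95 within slide 2. The Hist1h4i probe is placed only at chr13:21406569-21406575 of mm7, a stretch much shorter than its 60 bases. Which transcript it reads was not tested. Hist1h4d (H4c4) read 2.25, 2.02 and 1.88 on pre-miR-16 arrays at probe A_51_P136097, against 1.36, 1.10 and 0.96 on pre-miR-Control arrays, and rose by 0.91 ± 0.15 (adjusted p = 0.00444).

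Hist1h4f (H4c6) rose by 0.82 ± 0.15 (adjusted p = 0.00724). Hist2h4 (H4c14) rose by 0.88 ± 0.16 (adjusted p = 0.00679). Hist4h4 (H4f16), a gene apart from the main clusters, rose by 0.87 ± 0.14 (adjusted p = 0.00441), and its other probe was above background on no array. The groups did not overlap at any of these 3 probes. Hist1h4a (H4c1) rose by 0.60 ± 0.15 (adjusted p = 0.0217) and was called under 17 of 21 alternative settings. The second Hist1h4d probe, A_51_P482070, changed by 0.54 ± 0.20 and was not called (adjusted p = 0.0699).

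All H4 genes encode nearly the same protein, and 3 of these probes overlap in sequence. Hist1h4d and Hist1h4f match at 50 of 50 aligned bases, and Hist2h4 matches Hist1h4f at 45 of 49 (91.8%). Capitals mark where Hist2h4 differs from the Hist1h4f probe. The probes lie on chr13:22947598-22947657, chr13:22917373-22917432 and chr3:96136980-96137039 of mm7.
Hist1h4d: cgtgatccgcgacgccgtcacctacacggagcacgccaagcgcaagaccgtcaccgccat
Hist1h4f: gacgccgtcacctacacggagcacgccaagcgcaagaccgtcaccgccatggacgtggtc
Hist2h4: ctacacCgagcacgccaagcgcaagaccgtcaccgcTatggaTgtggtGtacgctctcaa

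Hist1h4d and Hist2h4 matched at only 45.8%. The changes of those 3 probes lay between 0.82 and 0.91. Whether they read shared or separate H4 transcripts was not tested, so they are not counted as 3 independent genes. No other member probe met the 80% limit with the Hist1h4i probe, and its change of 1.82 stood outside their range.

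Variant histones showed few increases. H3f3a, 1 of the genes for the replacement histone H3.3, was read by 3 probes that were all lower. At probe A_52_P76734 it read 5.64, 5.59 and 5.53 on pre-miR-16 arrays, against 6.31, 6.49 and 6.43 on pre-miR-Control arrays, with no overlap. The change was -0.83 ± 0.09, or 1.77-fold lower (adjusted p = 0.00117), at -0.67 within slide 1 and -0.87 within slide 2. Probe A_52_P1041253 changed by -0.84 ± 0.10 (adjusted p = 0.00136) and A_51_P456237 by -0.58 ± 0.12 (adjusted p = 0.0089). The last was not called with slide as a block (-0.54, adjusted p = 0.0569). Probes A_52_P76734 and A_52_P1041253 share the run tacaaagcagactgcccgcaaatc and, further on, cacccaggaaacaa, so their readings are not independent. A_52_P1041253 is placed only at 180782217-180782246 on chromosome 1 of mm7, a stretch shorter than its 60 bases.

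H3f3b encodes the same H3.3 protein, and neither of its probes was called. It read 7.50, 6.53 and 7.25 on pre-miR-16 arrays at probe A_51_P164667, against 7.41, 7.41 and 7.47 on pre-miR-Control arrays. Replicate 2 lay below every other array, as it did for the H3 cluster probes. The change was -0.34 ± 0.25 (adjusted p = 0.304), and at the second probe -0.12 ± 0.23 (adjusted p = 0.713). Without replicate 2 the changes were -0.054 and 0.16 (adjusted p = 0.696 and 0.216).

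H1f0, the linker histone known from resting and differentiated cells, gave a clear fall at 1 of its probes. A_52_P442234 read 2.00, 1.81 and 1.96 on pre-miR-16 arrays, against 2.94, 2.89 and 2.78 on pre-miR-Control arrays, a change of -0.95 ± 0.10 or 1.93-fold lower (adjusted p = 0.000861). Within slides 1 and 2 the differences were -0.94 and -1.02. Its other probes, which overlap each other and are much dimmer, were not called, with changes of 0.31 ± 0.26 (adjusted p = 0.369) and 0.27 ± 0.29 (adjusted p = 0.476).

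H1fx (H1f10), another linker variant, also gave unlike answers. The dim probe A_51_P114843 read -2.87, -2.59 and -2.87 on pre-miR-16 arrays, against -3.77, -4.03 and -4.33 on pre-miR-Control arrays, and was the 1 variant probe called higher, by 1.27 ± 0.17 (adjusted p = 0.0021) and by 0.53 under normexp correction. The bright probe A_52_P748854 changed by -0.24 ± 0.18 and was not called (adjusted p = 0.32). With only the brightest probe of each gene, 0 of 10 variant genes were higher and 3 were lower (H3f3a, H1f0 and H2afv), while 14 of 28 cluster genes were higher and 1 lower, against 16.7% higher and 30.4% lower over all genes.

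Of the H2A variants, H2afv (H2az2), which encodes a form of H2A.Z, was the 1 called. It read 5.55, 5.47 and 5.31 on pre-miR-16 arrays, against 6.07, 6.12 and 6.06 on pre-miR-Control arrays, a change of -0.64 ± 0.10 or 1.56-fold lower (adjusted p = 0.0036). H2afz (H2az1), the other H2A.Z gene, read 5.34, 4.89 and 5.39 on pre-miR-16 arrays, against 5.28, 5.43 and 5.36 on pre-miR-Control arrays, and its change of -0.15 ± 0.15 was not called (adjusted p = 0.458). Without replicate 2, the lowest array, it was 0.0074 (adjusted p = 0.952). A second probe filed under H2afz is placed on chromosome 6 and was above background on no array.

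H2afx (H2ax), the H2A that is phosphorylated at DNA breaks and makes both stem-loop and polyadenylated mRNA, read 2.74, 2.48 and 2.63 on pre-miR-16 arrays, against 2.42, 2.36 and 2.27 on pre-miR-Control arrays. Its change of 0.27 ± 0.11 missed the threshold (adjusted p = 0.08) and passed it under 8 of 21 alternative settings, among them without pre-miR-16 replicate 2 (0.34, adjusted p = 0.0308). H2afj (H2aj) changed by 0.33 ± 0.14 and 0.12 ± 0.12 at its probes (adjusted p = 0.112 and 0.435). The second of these, A_52_P407692, is the H2afj probe that is alike to the probe of Hist1h2aa. The 3 probes of H2afy, which encodes macroH2A1, changed by -0.29 to -0.23 (0.07 to 0.13 with spike-in scaling) and were not called. Without pre-miR-16 replicate 2 its probe A_52_P141583 was called lower (-0.35, adjusted p = 0.0494). H2afy3 changed by 0.18 ± 0.12 (adjusted p = 0.29). H2afy2, for macroH2A2, was too dim to test.

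Genes of DNA replication and mitosis were set beside the histones array by array. The median of 24 DNA replication genes, relative to the mean of the controls, was 0.77, -0.22 and 0.81 on pre-miR-16 arrays, and 0.03, 0.05 and -0.11 on pre-miR-Control arrays. Over 20 mitosis genes it was 2.17, 0.62 and 2.05 on pre-miR-16 arrays, and 0.16, 0.10 and -0.28 on pre-miR-Control arrays. Pre-miR-16 replicate 2 was thus the lowest of the 3 in both lists, and its replication median lay below all controls.

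In the H1, H2A and H3 cluster probes replicate 2 was likewise the lowest pre-miR-16 array. The medians on the pre-miR-16 arrays were 0.90, 0.43 and 0.73 for H1. They were 0.37, -0.03 and 0.39 for H2A and 0.34, -0.59 and 0.15 for H3. In the H2B and H4 probes replicate 2 was not the lowest, with 1.71, 1.59 and 1.52 for H2B and 1.05, 0.83 and 0.72 for H4. For H2B the pre-miR-Control medians were -0.12, -0.09 and 0.23, and for H4 they were 0.21, 0.02 and -0.22. The variants lay at -0.02, -0.08 and -0.18 on the pre-miR-16 arrays. Without pre-miR-16 replicate 2, 24 of 35 cluster probes were called higher and 1 lower with a median of 0.87, and 2 variant probes were higher and 6 lower, against 19.4% higher and 31.4% lower over all probes.

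**Figure D3:**
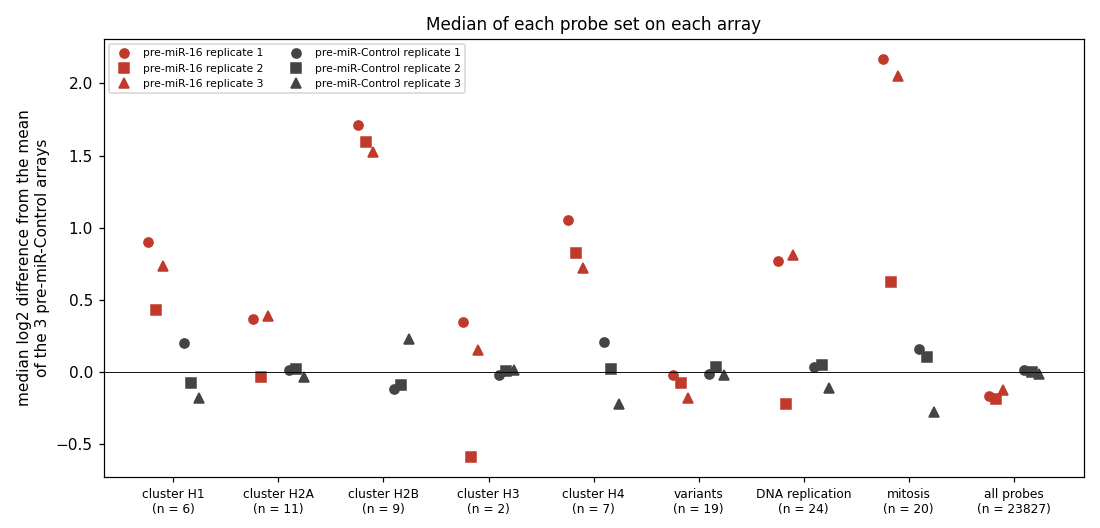
Median log2 difference from the mean of the 3 pre-miR-Control arrays, for each probe set (x axis, number of probes below its name) on each pre-miR-16 array (red) and pre-miR-Control array (grey). H2B and H4 medians are high on all 3 pre-miR-16 arrays, whereas replication genes, H2A and H3 are not above the controls on pre-miR-16 replicate 2 (-0.22, -0.03 and -0.59).

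Of the DNA replication genes, 6 of 24 were called higher and 0 lower (median change 0.40, and 0.14 with slide as a block), and of the mitosis genes 12 of 20 were higher and 0 lower (median 1.56, and 1.28 with slide as a block), against 15.8% higher and 28.8% lower over all probes. Tyms, thymidylate synthase, changed by 1.00 ± 0.19 (adjusted p = 0.00709), at 1.92, 1.34 and 1.89 on pre-miR-16 arrays, against 0.64, 0.91 and 0.60 on pre-miR-Control arrays. Rrm2, a subunit of ribonucleotide reductase, read -0.36, -2.47 and -0.23 on pre-miR-16 arrays, against -4.07, -4.05 and -4.05 on pre-miR-Control arrays, a change of 3.04 ± 0.58 (adjusted p = 0.00772). In both genes replicate 2 lay above every control, unlike the median of the list. Tpx2, a spindle protein, changed by 2.48 ± 0.19 (adjusted p = 0.000213). How far these genes and the histones share a source was not tested.

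Few genes that make and process histone mRNA were higher. Of 23 measured, 1 was higher and 7 were lower, with a median change of -0.20 (0.16 with spike-in scaling), close to the -0.16 of all probes, and the share of lower calls was near the 28.8% of all probes. Sympk, a scaffold of the complex that cuts histone pre-mRNA, rose by 0.67 ± 0.09 (adjusted p = 0.00222). Lsm10, part of the U7 particle that guides the cut, fell by 0.51 (adjusted p = 0.00576). Pou2f1, the octamer-binding factor, changed by -0.42 ± 0.09 (adjusted p = 0.0138), and Casp8ap2, also called FLASH, by -0.42 ± 0.10 (adjusted p = 0.0153). With slide as a block these last calls were lost (-0.43, adjusted p = 0.0554, for Pou2f1 and -0.46, adjusted p = 0.0552, for Casp8ap2). The 7 lower calls were not made with spike-in scaling, which gave 2 higher and 0 lower.

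Among 28 measured histone chaperones and deposition factors, 2 were higher and 8 lower, with a median of -0.04 (5 higher, 1 lower and 0.31 with spike-in scaling). Over all probes 15.8% were higher and 28.8% lower, so the share of lower calls was near that of the array. Srcap, the ATPase that exchanges H2A.Z into nucleosomes, read 0.80, 0.88 and 0.82 on pre-miR-16 arrays, against 1.83, 1.96 and 1.99 on pre-miR-Control arrays. Its change of -1.09 ± 0.09 (adjusted p = 0.000331) kept its sign and call with spike-in scaling (-0.74, adjusted p = 0.0147). Asf1a, which hands H3 and H4 to other chaperones, changed by -0.49 ± 0.08 (adjusted p = 0.00504). Atrx, which deposits H3.3 in heterochromatin, changed by -0.72 ± 0.16 (adjusted p = 0.0137). Rbbp4, a subunit of chromatin assembly factor 1, changed by -0.57 ± 0.14 (adjusted p = 0.0212). With slide as a block the calls of Atrx (-0.66, adjusted p = 0.0689) and Rbbp4 (-0.41, adjusted p = 0.0571) were lost.

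Markers of other cell types also differed between the groups. Over all probes 15.8% were called higher and 28.8% lower, or 21.7% and 5.92% with spike-in scaling. The cultures carried luminal epithelial markers, 15 of 15 measured, with mean levels of 4.03 to 4.14 on pre-miR-16 arrays and 4.64 to 4.76 on pre-miR-Control arrays, and 9 of 15 were lower and 0 higher (3 lower with spike-in scaling). Of 14 fibroblast markers measured, 13 were higher and 0 lower (median change 3.91), with mean levels of 3.28 to 3.58 on pre-miR-16 arrays and 0.09 to 0.29 on pre-miR-Control arrays. All 15 macrophage markers were measured, and 13 were higher and 0 lower, with mean levels of 0.70 to 1.14 on pre-miR-16 arrays and -3.44 to -2.46 on pre-miR-Control arrays. Ptprc and Mrc1 cleared the background on 0 of 3 control arrays. Basal epithelial markers had 3 higher and 3 lower of 8, and of 9 adipocyte, endothelial and erythroid markers 2 were measured and 1 was higher. The part of these cell types in the histone values was not tested.

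The slides of the arrays did not separate the groups fully. Slide 1 held pre-miR-16 replicate 1 and pre-miR-Control replicate 1, slide 2 held pre-miR-16 replicate 2 and pre-miR-Control replicates 2 and 3, and slide 3 held pre-miR-16 replicate 3 alone. The median change of cluster probes was 0.85 within slide 1 and 0.67 within slide 2, and 0.58 with slide as a block, where 17 were called higher and 1 lower against 12% and 18.8% of all probes. For variants the medians were 0.06, -0.11 and -0.16, with 1 higher and 4 lower. H2B medians were 1.85 and 1.53 and H4 medians 0.85 and 0.95 within the slides, while H2A medians were 0.37 and -0.03 and H3 medians 0.37 and -0.60.

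**Figure D4:**
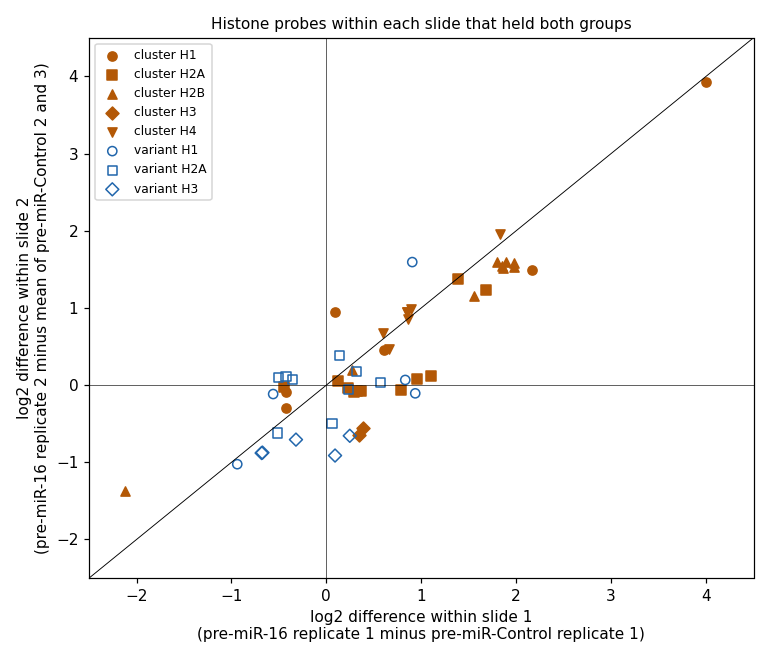
Log2 difference of each tested histone probe within slide 1 (x axis) and within slide 2 (y axis), pre-miR-16 minus pre-miR-Control, by class and histone type, with the line of equal values. H2B and H4 cluster probes lie near the line (medians 1.85 and 1.53, and 0.85 and 0.95), and H3 probes lie under it.

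For the variants, direction depended on the scaling. Relative to the 75th percentile, 8 probes for spiked-in RNA read 3.74, 3.66 and 3.39 on pre-miR-16 arrays, and 4.03, 3.93 and 3.88 on pre-miR-Control arrays. Scaling on them moved every change up by 0.35, so that 78.6% of all calls were higher in place of 35.5%. Cluster probes then had 23 higher and 1 lower with a median of 1.14, and variants 3 higher and 1 lower with a median of 0.13, against 21.7% higher and 5.92% lower over all probes and a median of 0.19. Against the median of all probes, which moves with the scaling, the cluster median stood at 0.96 and the variant median at -0.06. The lower calls of H2afv (-0.29, adjusted p = 0.225) and of the 3 H3f3a probes (-0.47, -0.49 and -0.23, adjusted p = 0.0741, 0.0694 and 0.409) were lost, and that of H1f0 was not (-0.59, adjusted p = 0.0351). The amount of spiked-in RNA per sample was not known.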

How the data were processed

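Arrays were 1-colour, 1 per sample, and groups were taken from the labels. Per the file headers, the deposited spot intensity was background-subtracted and detrended within each array by Agilent Feature Extraction 9.5.3.1. The deposited series matrix holds log2 values whose normalization is not stated in the sources used here. With R 4.3.3 and limma 3.58.1 (and data.table, version 1.17.8), outlier spots (74 to 113 per array) were dropped, spots of a probe averaged on the log2 scale and each array's 75th percentile subtracted. Tested probes had a share of at least 0.5 of their spots well above background on each of the 3 arrays of a group. Groups were compared with lmFit and eBayes, with Benjamini-Hochberg adjustment over 23827 probes, and the code was tested on simulated data. Names came from RefSeq by accession (22944 probes), symbol (6664) or synonym (3108), otherwise from the file (8458). Positions are in mm7, as the files give them. In the matrix, replicates 1 and 2 of the pre-miR-16 group correlated at 0.985 with their own scanner file and at 0.999 with each other's (Spearman). Same-numbered arrays' deviations correlated at -0.09, -0.04 and -0.00, and replicate numbers were not used to pair samples in the main fit. Whether same-numbered samples shared a source is not known. Named were, per cluster histone type, the 3 probes with the smallest p, the probe with the highest mean level and every other tested probe of those genes, every tested variant probe, members known by a bound, and up to 4 genes per other list. Members, lists and tests were chosen with earlier results of these data known. Sequences come from RefSeq (GRCm38.p6) or the files, and probes were called alike at 80% identity over at least 40 bases. Python 3.11.15, pandas 2.3.3 and matplotlib 3.10.9 were used for sequences and figures.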

Additional observations from a re-analysis of the deposited data

How the results depend on the processing

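Results were recomputed under 21 alternatives, 6 of which left out an array. Of 845 values of single named probes, 811 kept direction and call, 28 gained the call, 6 lost it and 0 reversed. The count of cluster probes called higher was 17 and lay between 16 and 24 with an array left out and at 25 with array weights (median 0.96), and their lower count stayed at 1 (0 with probes above background on all 6 arrays). The cluster median of 0.79 lay between 0.65 and 0.87 with an array left out. It was 1.14 with spike-in scaling, 0.58 under normexp correction with either normalization, 0.55 from the series matrix values, 0.55 with no filter on dim probes and 0.58 with slide as a block. Variant probes called higher numbered 1 in the main setting and 1 to 2 with an array left out. They numbered 2 with quantile normalization, 2 and 2 under normexp correction, 2 from the series matrix, 2 with trend and robust eBayes, 3 with spike-in scaling, 4 with array weights and 0 with the brightest probe of each gene. Variant probes called lower numbered 5, and 5 to 6 with an array left out, 1 with spike-in scaling and 3 with the brightest probe. The variant median of -0.23 lay between -0.27 and -0.054 with an array left out. It was -0.16 with quantile normalization, -0.30 with median centring, 0.13 with spike-in scaling, -0.13 under normexp and quantile normalization, -0.16 from the series matrix, -0.068 with array weights and -0.16 with slide as a block. With spike-in scaling every change moved by the same amount by construction; the cause of the other differences was not tested. Shares of all probes called higher lay between 12% and 21.9% under these settings, and at 7.93% with no filter. With replicate number as a block, which changed no count by over 1.5 times, 18 cluster probes were higher and 1 lower, and 1 variant probe was higher and 5 lower. Dim probes near background are limited most: normexp correction took Hist1h1d at A_51_P501260 to 1.17 and Hist1h2ab to 0.64.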

Other observations

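Chaperones that load newly made histones at replication forks differed among themselves. Those named here were picked after their values were seen. Asf1b, which carries H3 and H4 in dividing cells, read 1.56, 0.32 and 1.51 on pre-miR-16 arrays, against 0.38, 0.35 and 0.46 on pre-miR-Control arrays, and its change of 0.73 ± 0.33 was not called by limma (adjusted p = 0.121). Chaf1a, the large subunit of chromatin assembly factor 1, read 0.44, -0.52 and 0.38 on pre-miR-16 arrays, against -0.64, -0.52 and -0.80 on pre-miR-Control arrays, a change of 0.75 ± 0.27 (adjusted p = 0.0615). For both, pre-miR-16 replicate 2 lay no higher than the highest control. Chaf1b, the partner subunit of Chaf1a, read 1.68, 1.25 and 1.81 on pre-miR-16 arrays, against 2.30, 2.18 and 2.00 on pre-miR-Control arrays, and was called lower (-0.58 ± 0.17, adjusted p = 0.0344, and -0.74, adjusted p = 0.0226, with slide as a block), but not with spike-in scaling (-0.23, adjusted p = 0.495). Slbp, which binds the stem-loop of cluster histone mRNA, read 2.15, 1.80 and 2.12 on pre-miR-16 arrays, against 2.00, 2.04 and 2.06 on pre-miR-Control arrays, a change of -0.01 ± 0.12 (adjusted p = 0.947). Npat, the coactivator of cluster genes, changed by 0.04 ± 0.13 (adjusted p = 0.825).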
